A study of Mus musculus with 8 samples.

Results

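The 10 genes described here belong to carrier families that move sulfate, bicarbonate or other anions across membranes. They are Slc26a1, Slc26a2, Slc26a6, Slc26a11, Slc13a4, Slc4a1, Slc4a2, Slc4a3, Slc4a7 and Slc4a11. They were chosen by symbol, for their known or possible part in the entry of chromate into cells, and matched to Entrez GeneIDs in the RNA-seq count table, where all 10 were found among 23403 genes. The cells were Hepa-1c1c7 (Hepa-1), a mouse hepatoma line grown in α-MEM with fetal bovine serum. For RNA-seq there were 2 libraries from cells given Cr(VI) as CrK2O4 at 25 µM over 90 minutes, and 2 control libraries whose labels do not tie them to either exposure. FAIRE-seq, which recovers DNA that is not held by nucleosomes, had 1 library for each of 4 conditions: the same acute 25 µM exposure, its control, growth over 20 passages with Cr(VI) at 0.5 µM, and the passaged control without chromium. Total counts were 32877791 and 32319676 in the treated and 33303645 and 37696116 in the control RNA-seq libraries. The labels do not say whether the replicates were separate cultures, so p-values measure only the spread between these libraries, which may be technical. All come from 1 cell line, and in bulk RNA fewer cells of a kind and less RNA per cell cannot be told apart.

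Chromate is a tetrahedral anion that resembles sulfate and phosphate in shape and charge, and it enters cells on carriers that evolved for those ions. In red blood cells the anion exchanger of the membrane, the product of Slc4a1, is the classic route, while other cells depend on sulfate carriers and other anion exchangers. Inside the cell Cr(VI) is reduced, and the reduced forms bind to DNA and protein. The SLC26 family exchanges sulfate, chloride, oxalate or bicarbonate, the SLC13 family couples sulfate or carboxylates to sodium, and the SLC4 family moves bicarbonate, in some members in exchange for chloride and in others together with sodium. Not every gene of the list is an exchanger of this kind: Slc4a7 encodes a sodium bicarbonate cotransporter, and the product of Slc4a11 is known mainly from the corneal endothelium and carries little or no bicarbonate.

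In these hepatoma cells 7 of the 10 genes were expressed, taken as a mean of at least 1 normalized CPM (read counts per 1000000 of the library, with library sizes scaled by TMM) over the 4 libraries, and 51.6% of the genes of the table met this minimum. The expressed genes were Slc26a2, Slc26a6, Slc26a11, Slc4a2, Slc4a3, Slc4a7 and Slc4a11. The remaining 3, the liver and kidney sulfate exchanger Slc26a1, the sodium-coupled sulfate carrier Slc13a4 and the red cell exchanger Slc4a1, were at or near 0 counts. The sulfate entry genes with reads in number were thus Slc26a2, Slc26a11 and Slc26a6, and of the chloride and bicarbonate exchangers of the SLC4 family Slc4a2 and, at a lower level, Slc4a3.

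Levels of different genes were compared as CPM per kilobase of exon. Slc4a2 stood first with a mean of 16.9 over the 4 libraries, above 82.5% of the genes of the table, followed by Slc26a2 at 14.2. Slc4a11 at 9.59 and Slc26a11 at 5.90 came next, and Slc4a7 at 2.14, Slc4a3 at 1.73 and Slc26a6 at 0.983 closed the expressed group. In the control libraries each of these 7 was separated from the next, for example Slc4a2 at 20.3 in both against Slc26a2 at 18.8 and 17.6. Over all 4 libraries the ranges of the neighbours Slc4a2 and Slc26a2, Slc26a2 and Slc4a11, Slc4a11 and Slc26a11, and Slc4a7 and Slc4a3 overlapped. Within each library Slc4a2 was still above Slc26a2, by little in treated replicate 1 (14.3 against 14.1), and Slc4a11 was above Slc26a11. Slc26a2 and Slc4a11, and also Slc4a7 and Slc4a3, changed places in treated replicate 2, so the order of these pairs did not hold in every library. In treated replicate 2 Slc4a11 stood first at 18.1, above Slc4a2 at 12.8, and Slc26a2 at 6.27 came behind Slc26a11 at 7.62. Below them Slc13a4 (0.0549), Slc26a1 (0.0221) and Slc4a1 (0.0117) were not separated from one another across the 4 libraries. The level of Slc4a7 depends on the length used: the exons of all its transcripts join to 17784 bases, and with its longest curated transcript of 7758 bases, a choice made after seeing the data, its mean was 4.90, still between those of Slc26a11 and Slc4a3.

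**Figure D1:**
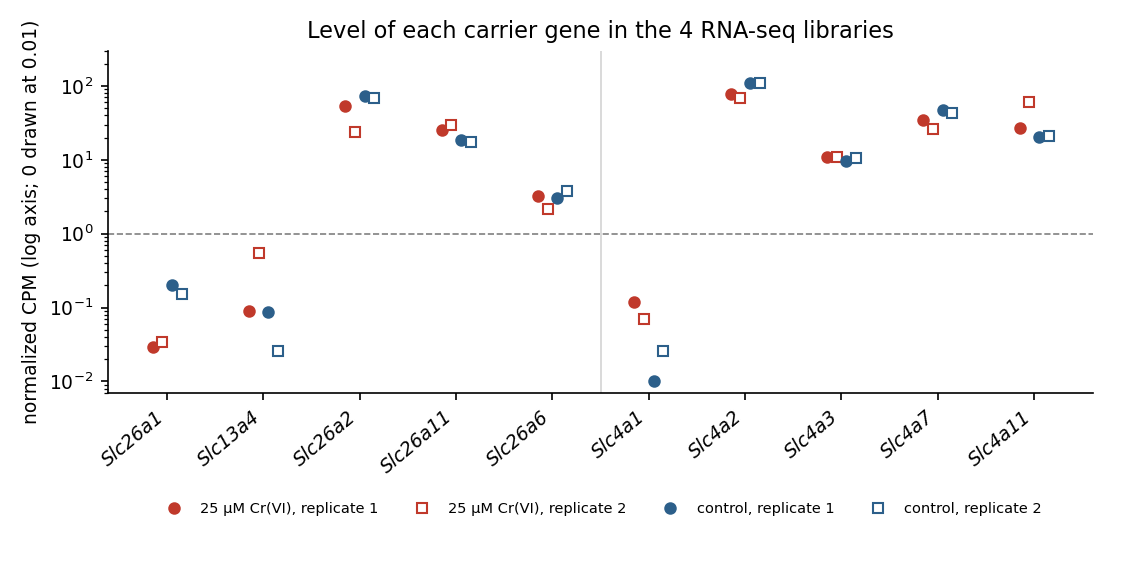
Normalized CPM (log axis) of each of the 10 carrier genes in the 2 libraries treated with 25 µM Cr(VI) and the 2 control libraries, with SLC26 and SLC13 genes left of the grey line and SLC4 genes right of it. The dashed line marks 1 CPM; 7 genes lie above it in every library, and Slc26a1, Slc13a4 and Slc4a1 lie below it in every library.

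The label of the cells was checked against 12 hepatocyte markers. Albumin (Alb) was at 3670 and 3550 CPM in treated and 904 and 947 CPM in control libraries, and per kilobase its mean level exceeded that of 99.7% of genes. Transferrin (Trf), the retinol carrier Rbp4 (223 to 555 CPM) and alpha-fetoprotein (Afp), which liver tumours often express, were also abundant. Some other liver markers of the list were nearly absent: Apoa1 had 0 CPM in both controls, Ahsg did not pass the filter on low counts, and Hnf4a lay between 0.230 and 0.518 CPM. Ttr was low too, at 0.345 and 0.332 CPM in the controls and 1.80 and 1.97 CPM with Cr(VI). The summed level of the 12 markers was 5810 and 6440 CPM in treated against 2430 and 2500 CPM in control libraries, with Alb the most abundant in the treated and Trf in the control libraries, and 3 of the 9 that could be tested rose (Alb, Ttr and Rbp4) and 0 fell (edgeR, adjusted p under 0.05, where 4.63% of all genes tested were called). At an unadjusted p under 0.05, 7 were higher and 0 lower, against 30.7% of all genes tested, and DESeq2 called 6 higher and 0 lower, against 15.2%. When either control library was left out, the calls of Alb, Ttr and Rbp4 were lost (edgeR adjusted p from 0.214 to 0.3), while their log2 fold changes stayed at 1.91 and 1.98, 2.47 and 2.42, and 1.15 and 1.21. These markers moved in the same libraries as the carriers below, and their part in those values was not tested. Of 9 erythroid markers in the table, cells in which Slc4a1 is known to be abundant, Hbb-bs was at 0 in every library and the sum was 8.98 and 16.3 CPM in treated and 5.89 and 6.37 CPM in control libraries. The most abundant erythroid marker was Hba-a1, at 2.33 to 7.14 CPM, whose reads cannot be fully told from those of its near copy Hba-a2. Hba-a2 had nearly the same level, 2.33 to 7.07 CPM, so reads of this pair may enter the sum 2 times. Of the 4 tested, 0 were called by edgeR or DESeq2. At an unadjusted p under 0.05, 2 were higher, and these were Hba-a1 and Hba-a2.

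Slc26a2 encodes the widely expressed sulfate and chloride exchanger that supplies sulfate for proteoglycans in cartilage and other tissues, and by its mean per kilobase it was the most abundant sulfate carrier of the list, though not in treated replicate 2, where Slc26a11 was higher. The gene (GeneID 13521) lies at chr18:61196854-61211596 on the minus strand of the mm10 genome. It had 54.4 and 24.2 CPM in the treated and 72.6 and 67.8 CPM in the control libraries. Both treated libraries lay below both controls, but they differed more from each other than the nearer of them did from the controls. Replicate 2 was at 0.345 times the control mean and replicate 1 at 0.774 times. The fitted log2 fold change was -0.84 (SE 0.40, 95% interval -1.91 to 0.24, n = 2 and 2, edgeR adjusted p = 0.236), so Slc26a2 was not called. When replicates of the same number were paired as a block, it was called (log2 fold change -0.95, edgeR adjusted p = 0.000316). In that fit 2969 of 13619 genes tested were called. An annotated noncoding RNA, Gm52353, lies on the opposite strand within Slc26a2, and its reads could be part of the counts of Slc26a2.

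Slc26a11 encodes a sulfate carrier and chloride channel that has been found in lysosomes and the plasma membrane (GeneID 268512, chr11:119355509-119381076, plus strand). Its level was 25.2 and 29.3 CPM with Cr(VI) and 18.7 and 17.6 CPM in the controls. Here the treated libraries were close to each other and both above both controls. The log2 fold change of 0.59 (SE 0.15, 95% interval 0.19 to 0.99) was a level 1.5 times that of the controls, with an unadjusted p of 0.0137 and an adjusted p of 0.0931 in edgeR. Over the alternatives the adjusted p ran from 2.59e-21 to 0.774. Slc26a11 thus had the direction opposite to that of Slc26a2 in both treated libraries, without passing the threshold.

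The start of Slc26a11 lies head to head with that of Sgsh, the gene of a lysosomal sulfatase that acts on heparan sulfate, and their annotated ends overlap by a few bases on opposite strands. Sgsh had 32.5 and 21.2 CPM in treated and 50.0 and 52.4 CPM in control libraries. Both treated values were thus below both controls, the direction opposite to that of Slc26a11. The ratio of Slc26a11 to Sgsh CPM was 0.777 and 1.38 with Cr(VI) against 0.374 and 0.335 in the controls. Sgsh was not called by edgeR (log2 fold change -0.93, SE 0.24, adjusted p = 0.0931) but was by DESeq2, and this neighbour was singled out after its values were seen. Whether the counting used strand is not given in the sources used here, so reads of overlapping genes on opposite strands cannot be told apart.

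Slc26a6, the exchanger of chloride for oxalate or bicarbonate known from kidney and gut (GeneID 171429, chr9:108854043-108913049, plus strand), was the lowest of the expressed genes. It had 3.28 and 2.17 CPM in treated and 3.05 and 3.84 CPM in control libraries. The groups overlapped, and the log2 fold change of -0.33 (SE 0.30, 95% interval -1.15 to 0.48) had an adjusted p of 0.498 in edgeR.

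Slc26a1 encodes an exchanger of sulfate for oxalate or bicarbonate that is typical of normal liver and kidney. In this hepatoma line it had 1 and 1 counts in the treated and 7 and 6 counts in the control libraries, out of library totals of 32319676 counts or more. Over both libraries of a group, that was 2 counts against 13, a ratio of 0.181 per normalized library size (95% exact interval 0.0198 to 0.798, counting error only). The gene was too low for the filter and was not tested. It lies opposite to Idua, a gene of 2.10 to 3.84 CPM, and its few reads cannot be separated from those of Idua if the counting ignored strand. Slc13a4, a sodium-coupled sulfate carrier of placenta and brain, had 3 and 16 counts with Cr(VI) and 3 and 1 in the controls. The same ratio for Slc13a4 was 5.58 (95% exact interval 1.85 to 22.6, counting error only). Of its 19 treated counts 16 came from replicate 2, so the excess belonged to 1 library. Neither gene was tested, since 3 of the 10 members did not pass the filter on low counts.

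Among the SLC4 genes, Slc4a2 encodes the anion exchanger found in most tissues, which swaps chloride for bicarbonate and in liver serves bile formation (GeneID 20535, chr5:24423761-24440947, plus strand). It had 77.9 and 69.4 CPM in the treated and 110 and 111 CPM in the control libraries. The 2 libraries of each group lay close together, and the gap between the groups was wider than the spread within either. The log2 fold change was -0.58 (SE 0.11, 95% interval -0.89 to -0.28), a level 0.667 times that of the controls. This gene had the lowest unadjusted p of the list, 0.00504. Its adjusted p of 0.0638 in edgeR missed the threshold, while DESeq2 called it with an adjusted p of 0.0366, and over all alternatives the adjusted p ran from 2.01e-43 to 0.58. A short pseudogene on the opposite strand, LOC115490257, overlaps Slc4a2, so this count too is uncertain to that extent.

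Slc4a3, the related exchanger best known from heart and brain (GeneID 20536, chr1:75546044-75559431, plus strand), was nearly level. It had 10.8 and 10.9 CPM with Cr(VI) and 9.75 and 10.6 CPM in the controls. Both treated libraries were above both controls by a margin smaller than the gap between the controls. The log2 fold change of 0.09 (SE 0.16, 95% interval -0.34 to 0.52, edgeR adjusted p = 0.733) turned to -0.02 without normalization beyond library size. Slc4a1, the red cell exchanger, had 4 and 2 counts in treated and 0 and 1 counts in control libraries, and was not tested. Its ratio per normalized library size was 7.05 (95% exact interval 0.855 to 324, counting error only). A floor of 3 counts corresponds to 0.0767 to 0.104 CPM in these libraries, and only treated replicate 1, at 0.118 CPM, exceeded it.

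Slc4a7 encodes a sodium bicarbonate cotransporter that loads cells with base (GeneID 218756, chr14:14703011-14799944, plus strand). It had 34.5 and 25.9 CPM in treated and 47.9 and 43.7 CPM in control libraries. Both treated libraries were below both controls, replicate 2 the farther. The log2 fold change was -0.60 (SE 0.18, 95% interval -1.08 to -0.11), with an unadjusted p of 0.026 and an adjusted p of 0.123 in edgeR. With the replicates paired as a block Slc4a7 was called (log2 fold change -0.61, edgeR adjusted p = 0.0388), beside 2969 of 13619 genes tested.

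Slc4a11 was the only tested gene of the list with a fitted level more than 2 times that of the controls (GeneID 269356, chr2:130684107-130697519, minus strand). It had 26.7 and 61.4 CPM with Cr(VI) and 20.6 and 21.2 CPM in the controls. Both treated libraries were above both controls, but replicate 2 stood far above replicate 1, at 2.94 against 1.28 times the control mean. The log2 fold change was 1.08 (SE 0.42, 95% interval -0.05 to 2.20) and the edgeR adjusted p 0.175. DESeq2 called it with an adjusted p of 0.0285, and over all alternatives the adjusted p ran from 6.47e-143 to 0.288. Without treated replicate 2 the log2 fold change was 0.35, and without treated replicate 1 it was 1.57.

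**Figure D2:**
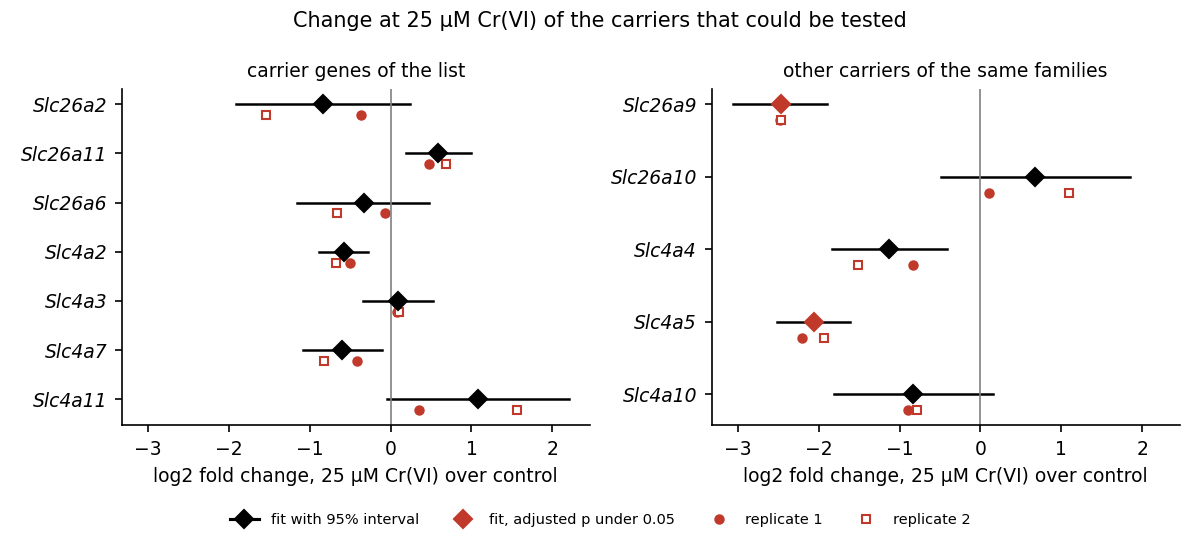
Log2 fold change of 25 µM Cr(VI) over control for the 7 carrier genes that passed the filter (left) and for the 5 tested of the other carriers of the same families (right). Diamonds and bars are the edgeR fit with its 95% interval, red diamonds have an adjusted p under 0.05, and small symbols are the 2 treated libraries against the control mean; only Slc26a9 and Slc4a5 are called, and Slc4a3 turns to -0.02 without normalization.

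Of the 7 genes that passed the filter, 0 were called by edgeR at an adjusted p under 0.05, where 631 of 13619 genes tested (4.63%, 243 higher and 388 lower) were called. At an unadjusted p under 0.05 there were 3 of the 7, Slc26a11 higher and Slc4a2 and Slc4a7 lower, against 30.7% of all genes tested, and DESeq2 called Slc4a2 and Slc4a11, beside 15.2% of all genes tested. In 6 of the 7 the treated libraries did not overlap the controls, 3 above and 3 below, but so did 66.3% of all genes tested. The median log2 fold change of the 7 was -0.33, beside 0 for all genes tested. Read against these shares, the counts do not set the list apart from other genes.

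The treated replicates differed by a median of 0.34 in absolute log2 CPM over the tested genes, against 0.06 between the controls. When treated replicate 1 was left out, 6 of these 7 genes, all but Slc4a3, were called, and so was Slc13a4, which then passed the filter, but in that fit 77.6% of all genes tested were called. When treated replicate 2 was left out, 5 were called, all but Slc26a6 and Slc4a3, beside 67.2% of all genes tested. In these fits the spread came from the controls alone, and the lone treated library was assumed to vary like them.

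The summed level of all 10 genes was 47.6 and 48.9 CPM per kilobase in treated against 55.3 and 54.2 in control libraries. Within the SLC26 and SLC13 genes, Slc26a2 gave 76.1% and 75.1% of the summed CPM per kilobase in the controls and 64.8% and 42.5% with Cr(VI). The share of Slc26a11 was 19.7% and 19.5% in the controls and 30.2% and 51.6% with Cr(VI), so in treated replicate 2 it exceeded that of Slc26a2. Within the SLC4 genes, Slc4a2 gave 66.1% and 66.0% in the controls and 55.2% and 37.3% with Cr(VI), while Slc4a11 had 19.8% and 20.3% against 30.4% and 53.1%. In both groups the gene that led in the controls held a smaller share in each treated library, with the larger shift in replicate 2. These shares were not tested.

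**Figure D3:**
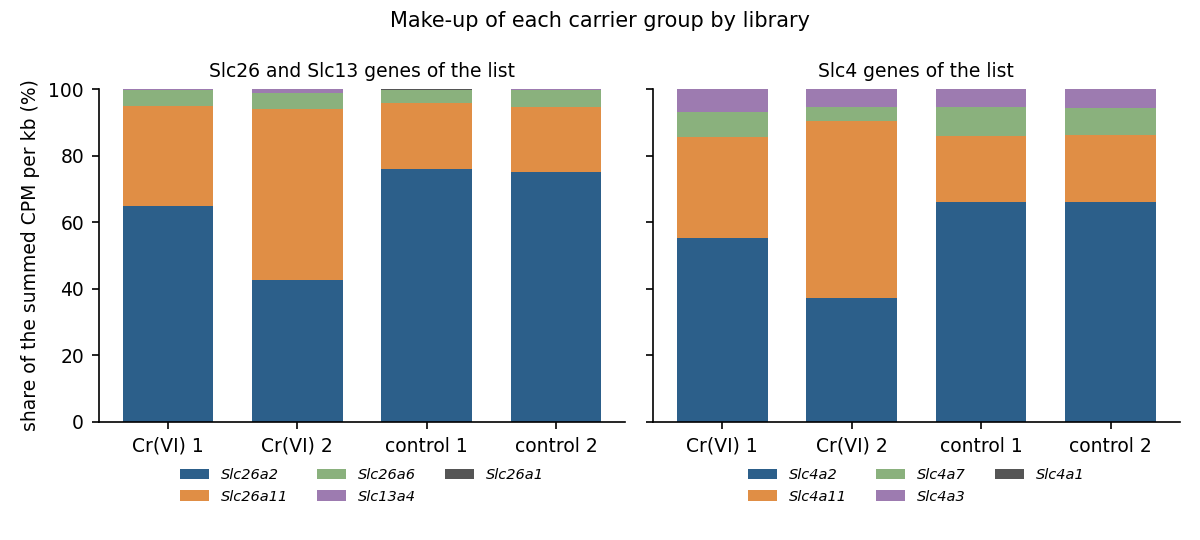
Share (%) of each gene in the summed CPM per kilobase of the SLC26 and SLC13 genes (left) and of the SLC4 genes (right) of the list in the 4 libraries. In controls Slc26a2 and Slc4a2 make up 75.1% or more and 66.0% or more, and in treated replicate 2 Slc26a11 (51.6%) and Slc4a11 (53.1%) are the largest.

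Among other carriers of the same families, Slc4a5 and Slc26a9 were called lower with Cr(VI). Of 16 further SLC26, SLC13 and SLC4 genes, 15 were in the table and 5 passed the filter, and of these 0 rose and 2 fell in edgeR, where 4.63% of all genes tested were called. At an unadjusted p under 0.05, 0 were higher and 3 lower, against 30.7% of all genes tested, and DESeq2 called 0 higher and 3 lower, where it called 15.2% of all genes tested. Slc4a5, an electrogenic sodium bicarbonate cotransporter, fell from 27.7 and 28.5 CPM in the controls to 6.12 and 7.35 CPM with Cr(VI). Its log2 fold change was -2.06 (SE 0.17, edgeR adjusted p = 0.0282). Slc26a9, a chloride channel and exchanger of epithelia, fell from 6.61 and 5.96 CPM to 1.12 and 1.14 CPM, a log2 fold change of -2.47 (SE 0.22, edgeR adjusted p = 0.0295). In both genes the treated libraries lay close together and far below the controls, and both calls held when any 1 library was left out. Slc4a4, the electrogenic sodium bicarbonate cotransporter of kidney and pancreas, had 12.9 and 8.07 CPM in treated against 23.8 and 22.1 CPM in control libraries and was called by DESeq2 but not by edgeR (log2 fold change -1.13, SE 0.27, edgeR adjusted p = 0.0863).

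Sulfate that enters the cell is activated to the sulfate donor PAPS before it is transferred, and is released again by sulfatases. Of 18 genes for these steps, 17 passed the filter and 0 were called by edgeR, beside 4.63% of all genes tested. At an unadjusted p under 0.05, 1 was higher and 2 lower, against 30.7% of all genes tested, and DESeq2 called 2 of the 17, Suox and Sgsh, both lower, where it called 15.2% of all genes tested. Their median log2 fold change was -0.11. Among the most abundant per kilobase were Papss1, which makes PAPS, and Suox, the sulfite oxidase that produces sulfate from sulfite. Papss1 had 313 and 236 CPM in treated and 255 and 258 CPM in control libraries, so its groups overlapped. Suox had 56.0 and 21.7 CPM in treated against 115 and 118 CPM in control libraries. Like Slc26a2, Suox was lowest in treated replicate 2, and with a log2 fold change of -1.58 (SE 0.47) it had an adjusted p of 0.118 in edgeR.

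Open chromatin was read from the authors' lists of FAIRE peaks, 2945 open at 25 µM and 860 open at 0.5 µM Cr(VI), each called in 1 treated library against 1 control. With 1 library a condition there is no replicate check, and the depth behind a peak is unknown. Both lists hold regions more open with Cr(VI) than in the control, so closing at these genes could not be read from them. In the 25 µM list, 2 of the 10 genes, Slc4a11 and Slc26a6, had a peak in the gene body or within 10 kb, against 9.24% of the 23281 genes with a position. In the 0.5 µM list 0 of the 10 genes had one, against 2.97% of genes, and 0 had one within 50 kb, against 6.34%. Neither of the 2 peaks lay within a gene of the list: both were upstream of it.

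Slc4a11 had the largest fitted fold change among the 7 tested. That rank rested on treated replicate 2: without it the log2 fold change was 0.35, smaller in size than those of Slc26a11, Slc4a2, Slc4a7 and Slc26a2. The peak at Slc4a11 is shown because it was the only one near the start of a listed gene. It lies between genes at chr2:130698176-130698276 (mm10), 657 bp upstream of the gene, with its centre 707 bp from the start. Of all genes, 0.799% had a peak centre of this list as near to a start. The sequence is given 5′ to 3′ on the minus strand, the strand of Slc4a11, from the RefSeq genome GRCm38.p6, with the letters TGAGTCA in capitals.
Slc4a11 upstream peak: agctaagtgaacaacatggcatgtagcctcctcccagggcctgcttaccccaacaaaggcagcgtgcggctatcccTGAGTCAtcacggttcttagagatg
TGAGTCA is the reverse complement of TGACTCA, the core sequence of the AP-1 factors, and both strands were searched. It occupies bases 77 to 83 of the peak and ends 675 bp before the start of Slc4a11. These letters were in 354 of the 2945 peaks of the list (12%), whose median width was 120 bp. In the 0.5 µM list, of median width 513 bp, they were in 196 of the 860 peaks (22.8%). The shares were not adjusted for width, and the presence of the letters in 1 peak is a description only. None of the peak was masked as a repeat. Its score was 56.2, on the scale of MACS, where a higher score stands for a lower p-value, and 60.6% of the peaks of the list scored as high or higher. It fell short of the stricter minimum of 100.

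The peak at Slc26a6, chr9:108852191-108852290, lay 1753 bp upstream of the gene, in the 3′ UTR of its neighbour Celsr3, and did not hold the AP-1 letters. Its score was 51.5, close to the lowest score of the list. Slc26a6 had overlapping groups in RNA-seq (above), and Celsr3, named after its values were seen, had 0.532 and 1.69 CPM in treated against 2.76 and 2.81 CPM in control libraries (edgeR adjusted p = 0.196). With 50 kb to either side, 6 of the 10 genes had a peak of the 25 µM list, against 20.9% of genes. The 4 added were Slc13a4, Slc4a1, Slc4a2 and Slc4a3, with peaks 18163, 14462, 39063 and 28050 bp from the gene. That of Slc4a3 was wholly repeat sequence, and so was 95% of another peak 14378 bp upstream of Slc4a11. None of these 5 held the AP-1 letters.

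The nearest peak of the 25 µM list was closer to a start than for the median gene (220000 bp) in 8 of the 10 genes, all but Slc4a7 and Slc26a1. For the genes of the highest levels it was 39158 bp from Slc4a2 and 114409 bp from Slc26a2. In the 0.5 µM list 5 of the 10 genes were closer than the median gene (865000 bp), and the nearest peak of any was 57306 bp from the start of Slc26a6. Slc4a11 alone among the listed genes had a 25 µM peak centre within 1 kb of a start, as did 1.05% of all genes. Slc4a2 and Slc4a7, whose log2 fold changes were alike at -0.58 and -0.60, had their nearest 25 µM peaks 39158 and 801027 bp away. A relation of peak distance to fold change was not tested, over the list or over all genes.

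**Figure D4:**
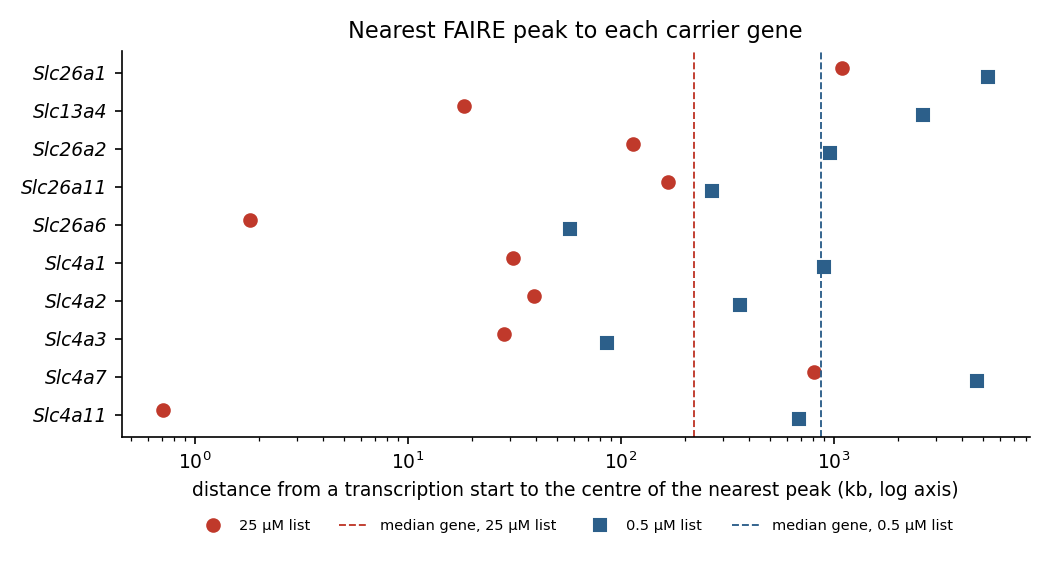
Distance (kb, log axis) from an annotated start of each gene to the centre of the nearest FAIRE peak of the 25 µM list (circles) and the 0.5 µM list (squares), with the median over all genes of the table as dashed lines. Slc4a11 (707 bp) and Slc26a6 (1803 bp) have the nearest 25 µM peaks, and no 0.5 µM peak lies closer than 57306 bp.

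RefSeq promoter sequences (GRCm38.p6, 300 bases each, around a start) were at hand for 6 of the 10 genes, in 8 entries: Slc4a3, Slc4a2, Slc26a1, Slc13a4, Slc26a6 and Slc4a7. TGACTCA on either strand was in 1 of the 8, a promoter of Slc26a1, against 5.20% of 32851 promoters of this kind. The expressed carriers Slc4a2, Slc4a3, Slc4a7 and Slc26a6 did not hold these letters in their windows.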

How the data were processed

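RNA-seq and FAIRE-seq of Hepa-1 cells were analysed from the values the authors deposited. The authors aligned RNA-seq reads to mm10 with TopHat and deposited raw read counts per Entrez gene; the counting tool and the use of strand are not given in the sources used here. FAIRE reads were aligned with BWA, and the deposited score of each peak comes from MACS run on 1 treated library with 1 control, and is its −log10 p-value multiplied by 10. Genes were filtered with filterByExpr (13619 of 23403 kept), scaled by TMM and tested in edgeR with glmQLFit and glmQLFTest, its quasi-likelihood test (no block, two-sided, Benjamini-Hochberg over all genes tested, threshold 0.05). The treated libraries had TMM factors of 1.03 and 0.897, both controls 1.04, and the biological coefficient of variation was 0.193. The steps were tested on simulated data. Lengths and positions came from the RefSeq annotation of GRCm38.p6, and a peak was counted at a gene if 1 bp lay in the gene body or 10 kb to either side. The rule for named genes was all 10 carriers, each called gene and the 3 most abundant per kilobase of each related list, and each peak in a carrier's window; others are marked as named after their values were seen, and some genes under this rule are not reported here. The related lists were other carriers of the families, sulfate activation and release, phosphate carriers, and pH and bicarbonate supply, beside markers of hepatocytes, erythroid cells, macrophages, and fibroblasts or endothelium. The members and lists were chosen with earlier results of these data known. Alternatives were a replicate block, other scalings, no filter, each library left out, DESeq2, other thresholds, lengths, windows, scores and transcript sets. RNA-seq of the 0.5 µM regimen was not used here. Versions were samtools 1.23.1, Python 3.11.15, pandas 2.3.3, matplotlib 3.10.9, numpy 2.4.6, scipy 1.17.1, edgeR 4.0.16, R 4.3.3 and DESeq2 1.42.0.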

Additional observations from a re-analysis of the deposited data

How the results depend on the processing

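Of 63 alternative values of the log2 fold changes of the 7 tested carriers, 45 kept their direction and stayed short of the threshold, 17 passed it in the same direction, and 1 changed sign (Slc4a3, -0.02 without normalization beyond library size, which moved the median of all genes to -0.114). The replicates share only a number, and the correlation of same-numbered deviations was 0.12. With the replicate block 2969 of 13619 genes tested were called. Among them were 4 of the 7 tested carriers (Slc26a2, Slc4a2, Slc4a7 and Slc4a11) and 8 of the related genes. Without 1 library, the calls ran from 287 to 10995 in all genes, from 0 to 7 in the carriers and from 3 to 32 in the related genes; the lowest numbers of all genes came without a control library (294 and 287) and the highest without a treated one (10995 without replicate 1, 9333 without replicate 2), where the lone sample is assumed to vary like the other group. DESeq2 called 2073 genes (1057 higher, 1016 lower), 2 carriers and 8 related genes. Thresholds of 0.01 and 0.1 gave 0 and 2212 of 13619 genes tested, 0 and 2 carriers, and 0 and 7 related genes. Carriers with a 25 µM peak were 0 with the gene body alone, 6 with 50 kb to either side, 1 with the peak centre within 1 kb of a start, and 0 at a score of at least 100. The cause of these differences between settings was not tested. The number of expressed carriers was 7 under every alternative but 1, where a mean of at least 1 per kilobase left 6. Other transcript lengths moved 5 of 20 levels per kilobase, and no alternative put a carrier at a 0.5 µM peak. Slc26a1, Slc13a4 and Slc4a1, which did not pass the filter, were tested only without it or, for Slc13a4, without 1 library, and without the filter their log2 fold changes were -2.37, 2.41 and 2.5 (edgeR adjusted p = 0.188, 0.264 and 0.326).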

Other observations

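Carriers of phosphate, the other ion that chromate resembles, and genes that set cell pH were read from the same fit. Over all genes tested, edgeR called 4.63%, 30.7% had an unadjusted p under 0.05, and DESeq2 called 15.2%. Of 8 phosphate carrier genes, 5 passed the filter and 0 were called by edgeR, with 1, the phosphate exporter Xpr1, lower at an unadjusted p under 0.05 and called lower by DESeq2. The most abundant per kilobase was the mitochondrial carrier Slc25a3, at 639 and 953 CPM in treated and 658 and 669 CPM in control libraries. The plasma membrane carrier Slc20a2 had 187 and 147 CPM with Cr(VI) against 203 and 207 CPM in the controls. Its relative Slc20a1 had 70.6 and 150 CPM against 81.1 and 79.9 CPM, and only treated replicate 2 stood above the controls.

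Of 16 genes for pH and bicarbonate supply, 11 passed the filter, 0 rose and 1 fell (2 higher and 3 lower at an unadjusted p under 0.05, 0 and 2 by DESeq2, all to be read beside the shares above). Car5b, a mitochondrial carbonic anhydrase, went from 8.77 and 8.67 CPM in the controls to 2.16 and 2.73 CPM with Cr(VI) (log2 fold change -1.84, SE 0.22, edgeR adjusted p = 0.0341). Without control replicate 1 its adjusted p was 0.0847 (log2 fold change -1.85), and without control replicate 2 it was 0.0808 (-1.86), so the fold change stayed and only the call was lost. Among the most abundant per kilobase were the lactate carrier Slc16a1, at 144 and 192 CPM against 214 and 214 CPM, and the carbonic anhydrase Car2, at 70.5 and 82.1 CPM against 57.1 and 58.9 CPM. Of the macrophage markers 0 of 3 tested were called by edgeR or DESeq2, with 2 lower at an unadjusted p under 0.05. Of the fibroblast or endothelial markers 1 of 3 tested, Pecam1, rose (log2 fold change 2.03, edgeR adjusted p = 0.0438). Pecam1 was low, at 17 and 19 counts in the controls and 60 and 65 with Cr(VI). Without control replicate 1 or 2 its log2 fold change stayed at 2.02 and 2.01, but the call was lost. Pdgfra and Col1a1 were not called. Pdgfra had 10.8 and 7.80 CPM in treated against 12.9 and 12.9 CPM in control libraries, and Col1a1 had 234 and 364 CPM against 203 and 207 CPM. The endothelial marker Cdh5 had 0 counts in every library.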
